A study of Mus musculus with 48 samples.

Results

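The genes studied here are 8 members of the leukaemia inhibitory factor (LIF) and STAT3 pathway, followed through a transcription block in mouse embryonic stem cells: *Lifr*, *Il6st*, *Stat3*, *Socs3*, *Socs2*, *Jak1*, *Pim1* and *Pim3*. The 8 genes were chosen by name as members of the pathway, out of 23862 gene identifiers in the series. Of the 8, 7 were listed in all 48 libraries, as were 10694 genes of the whole series. E14TG2a cells, a feeder-free line of mouse embryonic stem cells, grew in medium with serum, LIF and the inhibitors CHIR99021 and PD0325901 (2i + LIF), so that every group shared these supplements. Flavopiridol, a CDK9 inhibitor that blocks transcription by RNA polymerase II, was added to 1 µM, and polyadenylated RNA was sequenced after 30, 60, 120 and 240 min. Each harvest gave a whole-cell extract and a nuclear, a cytosolic and a membrane fraction, with 3 independently passaged replicates for each of the 16 groups. The 0 min libraries were not analysed here, and no group without flavopiridol at the later times was analysed here. Values are given as a ratio to the 0 min level of the same gene and fraction, so that 1 means no change, and the depth of the libraries is unknown. The whole-cell extract and the fractions of a harvest came from the same cells, so agreement between fractions is not independent replication.

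LIF binds LIFR, which pairs with gp130, the product of *Il6st*. The receptor pair activates the kinase JAK1, which phosphorylates the transcription factor STAT3, and STAT3 moves to the nucleus and switches on its targets. Among the targets are *Socs3*, whose protein binds gp130 and JAK kinases and damps the signal, and the serine/threonine kinases *Pim1* and *Pim3*. SOCS2 is a related inhibitor, best known for acting on growth hormone signalling. In mouse embryonic stem cells this pathway supports self-renewal.

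In GRCm38, *Lifr* (ENSMUSG00000054263) lies at chr15:7090614-7197489 and *Il6st* (ENSMUSG00000021756) at chr13:112464070-112510086, both on the plus strand. *Jak1* (ENSMUSG00000028530) lies at chr4:101152367-101265282 and *Stat3* (ENSMUSG00000004040) at chr11:100885098-100939540, both on the minus strand. *Socs3* (ENSMUSG00000053113) lies at chr11:117966079-117970047 and *Socs2* (ENSMUSG00000020027) at chr10:95385362-95417180, also on the minus strand. *Pim1* (ENSMUSG00000024014) lies at chr17:29490753-29496112 and *Pim3* (ENSMUSG00000035828) at chr15:88862186-88865726, on the plus strand.

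The genes differ in the sequences at their ends, which are shown for some of the members. STAT dimers bind a palindrome with the letters TTCNNNGAA. A search of the RefSeq promoter windows, from 250 bases before to 50 after the annotated start, found it in the single window of *Socs3* and in none of the other windows of the members. *Socs2* had no window in the table. Of 32851 windows in the mouse set, 8.30% hold the motif, which reads as the same pattern on both strands. The *Socs3* window, with the motif in capitals, lies on the minus strand of GRCm38.p6 at chr11:117969317-117969616. It falls inside the gene span given above, because the RefSeq start used for it is downstream of the start of that span.

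Socs3 promoter: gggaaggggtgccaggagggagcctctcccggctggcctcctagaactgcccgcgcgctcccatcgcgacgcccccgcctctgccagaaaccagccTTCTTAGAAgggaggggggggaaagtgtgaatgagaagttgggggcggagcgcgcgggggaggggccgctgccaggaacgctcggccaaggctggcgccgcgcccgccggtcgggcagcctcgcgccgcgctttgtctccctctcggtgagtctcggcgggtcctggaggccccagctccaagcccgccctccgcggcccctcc

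The pentamer ATTTA, written here as DNA, is the core of AU-rich elements, which are known to speed the decay of many short-lived mRNAs. It was counted on the sense strand of the longest annotated 3′ UTR of each gene (GENCODE vM21, GRCm38). One such stretch is shown for *Pim1*, *Pim3* and *Socs3*, which had the shortest half-lives in whole cells. Another is shown for *Jak1*, which fell least there. Every ATTTA is in capitals.

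Pim1 3′ UTR, chr17:29495692-29495721, plus strand: aatgtATTTATTTATTTATTTAtttggttg
Pim3 3′ UTR, chr15:88865275-88865304, plus strand: gggctATTTAttgtttaATTTAtttgctga
Socs3 3′ UTR, chr11:117966131-117966160, minus strand: catatATTTAtATTTAtactcagaaaagaa
Jak1 3′ UTR, chr4:101153456-101153485, minus strand: acaacATTTAaattcccATTTAtcaaatcc

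*Pim3* had 5 copies in 964 bases, or 5.19 per kilobase, a density that 5.16% of the 8225 UTRs of at least 100 bases among genes listed in all libraries reached. *Pim1* had 3.66 per kilobase, reached by 12.8% of these UTRs, and *Socs3* 2.71, reached by 23.7%. *Jak1* had 3.55 per kilobase, reached by 13.8%. The longer nonamer TTATTTATT was found in *Pim1* only, with 3 overlapping copies, while 7.66% of 21020 UTRs hold at least 1. *Jak1*, which stayed near its starting level in whole cells, was denser than *Socs3*, and whether density goes with the fall was not tested. The ATTTA counts in the remaining members ran from 2 in *Stat3* and *Socs2* to 11 in *Lifr*.

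*Socs3*, the feedback inhibitor, fell to a few percent of its starting level within 120 min and then rose again. In whole-cell RNA its ratio to 0 min was 0.279, 0.299 and 0.311 in the 3 replicates at 30 min, then 0.0630, 0.0604 and 0.0659 at 60 min. At 120 min the ratios were 0.0139, 0.0316 and 0.0219, and at 240 min 0.128, 0.149 and 0.129. The 4 time points did not overlap, and all 3 libraries at 240 min lay above all those at 60 and 120 min. In bulk RNA, fewer cells of a type and less RNA per cell cannot be told apart.

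The same course was seen in each fraction. The nuclear ratios of *Socs3* fell to 0.0452, 0.0327 and 0.0398 at 120 min and stood at 0.179, 0.165 and 0.139 at 240 min. In the cytosol they were 0.0214, 0.0196 and 0.0239 at 120 min and 0.106, 0.0993 and 0.115 at 240 min. In the membrane fraction they were 0.0249, 0.0274 and 0.0260, and then 0.177, 0.181 and 0.187. At 240 min the cytosolic libraries were the lowest and lay below every nuclear, membrane and whole-cell library, although the differences in level between fractions were not tested.

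**Figure D1:**
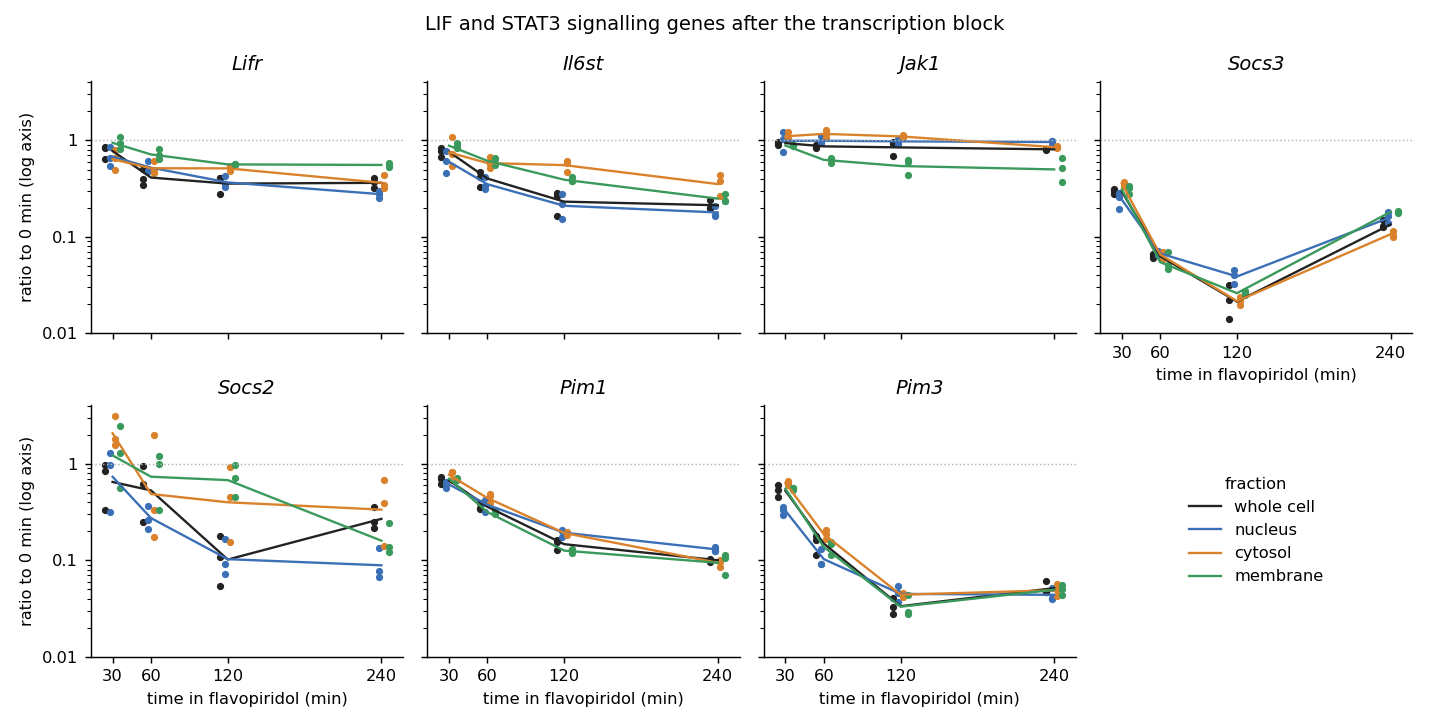
Ratio to 0 min (log axis) against time in flavopiridol (min) for the 7 members listed in all 48 libraries; points are single libraries, set slightly apart, and lines join the geometric means of the 3 replicates of a fraction. *Socs3* drops to between 0.0139 and 0.0452 at 120 min and stands between 0.0993 and 0.187 at 240 min, while *Jak1* stays near 1 in 3 of the 4 fractions.

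The rise of *Socs3* from 120 to 240 min passed the test in every fraction, by limma with Benjamini-Hochberg adjustment over all genes of the fraction. Its log2 difference was 2.66 ± 0.27 (SE, n = 3 per time) in whole cells (adjusted p = 7.6e-05, limma), a fold of 6.33 with a 95% interval of 4.19 to 9.54. The fold was 4.12 (2.82 to 6.01) in nuclear RNA, 4.94 (3.99 to 6.12) in cytosolic RNA and 6.97 (5.33 to 9.11) in membrane RNA. By rank, *Socs3* had the 6th highest of 12762 differences in whole cells, the 24th of 13343 in nuclear RNA, the 5th of 11979 in cytosolic RNA and the 4th of 12408 in membrane RNA. Genes that rose over this step were few, 5.92% of those tested in whole cells, 1.97% in nuclear RNA, 2.78% in cytosolic RNA and 3.72% in membrane RNA. Of the 10694 genes tested in all 4 fractions, 69 (0.645%) rose in all 4, and by the smallest of its 4 differences *Socs3* stood 2nd. The members that rose were 1 of 7 in whole cells, nucleus and cytosol, in each case *Socs3*, and 2 of 7 in the membrane fraction, *Socs3* and *Pim3*.

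The *Socs3* rise passed the test under every one of the 10 alternatives run in whole cells, cytosol and membrane and the 11 in the nucleus, with log2 differences from 0.77 to 3.17. The lower ends came from adding 0.1 to each ratio. At 240 min the whole-cell mean was 0.135 ± 0.012 (SD, n = 3), so *Socs3* remained far below its level at 0 min.

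**Figure D2:**
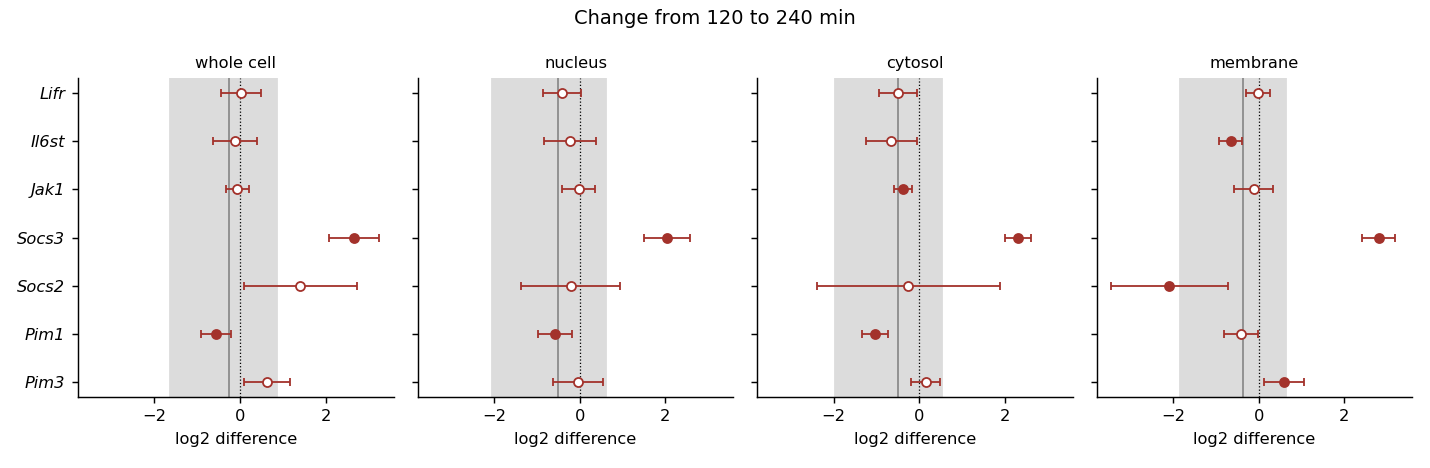
Log2 difference between 240 and 120 min for each member and fraction, with 95% intervals (n = 3 per time); filled points passed an adjusted p of 0.05, grey bands span the 5th to 95th percentile of all genes tested and the grey line is their median. *Socs3* lies to the right of the band in all 4 panels, and *Pim3* is the only other member filled on the right, in the membrane fraction.

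The PIM kinases fell steeply without a comparable return. *Pim3* stood at 0.459, 0.606 and 0.532 in whole cells at 30 min, at 0.164, 0.114 and 0.179 at 60 min, and at 0.0279, 0.0409 and 0.0329 at 120 min. At 240 min it was 0.0470, 0.0475 and 0.0613, above every library at 120 min, but the difference of 0.62 ± 0.24 (SE) did not pass (adjusted p = 0.071, limma). In the membrane fraction *Pim3* rose from 0.0440, 0.0280 and 0.0293 to 0.0438, 0.0502 and 0.0553, by 0.58 ± 0.21 on the log2 scale (adjusted p = 0.048, limma). These last groups overlap, and without replicate 2 or replicate 3 the membrane difference no longer passed, with an adjusted p of up to 0.37. The nuclear difference was -0.03, with a 95% interval of -0.62 to 0.55, and the cytosolic one 0.15, with an interval of -0.18 to 0.49.

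*Pim1* declined throughout. Its whole-cell ratios were 0.613, 0.694 and 0.728 at 30 min, 0.347, 0.342 and 0.393 at 60 min, 0.127, 0.161 and 0.156 at 120 min, and 0.102, 0.0971 and 0.102 at 240 min. No 2 time points overlapped. Over the last step *Pim1* fell by 0.55 on the log2 scale in whole cells, by 0.58 in nuclear RNA and by 1.03 in cytosolic RNA (adjusted p = 0.020, 0.028 and 0.00014, limma). In the membrane fraction the difference was -0.42 ± 0.18 (SE) and did not pass. Falls over this step were called for 29.2% of all genes in whole cells, 34.3% in nuclear RNA, 47.9% in cytosolic RNA and 37.6% in membrane RNA. Leaving out 1 replicate ended the *Pim1* call in whole cells for replicate 2 or 3 (adjusted p up to 0.26) and in nuclear RNA for each replicate (adjusted p up to 0.18), and centring on the median gene ended both calls.

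The early falls of *Socs3* and *Pim3* ranked high among all genes, and the differences of *Pim1* less so. From 30 to 60 min, *Socs3* fell by 2.23 on the log2 scale in whole cells, 1.86 in nuclear RNA, 2.45 in cytosolic RNA and 2.51 in membrane RNA. Counted from the lowest difference, *Socs3* ranked 22nd of 12762 genes in whole cells, 157th of 13343 in nuclear RNA, 6th of 11979 in cytosolic RNA and 7th of 12408 in membrane RNA. The *Pim3* differences were -1.82, -1.67, -1.77 and -2.01 in the same order, and each passed. The libraries were also centred on the median of mitochondrially encoded RNAs, that is all genes with an mt- symbol. Neither nuclear call then passed (adjusted p = 0.13 for *Socs3* and 0.16 for *Pim3*, limma), where 16 of 13343 genes fell. The *Pim1* differences were -0.91, -0.70, -0.80 and -1.15. They ranked 913th, 2736th, 849th and 496th, and the nuclear one did not pass. In whole cells *Il6st* and *Lifr* both stood at -0.92, ahead of *Pim1* in rank, and did not pass. The members that passed this step were 3 of 7 in whole cells and in cytosolic RNA (*Socs3*, *Pim3* and *Pim1*), 2 of 7 in nuclear RNA (*Socs3* and *Pim3*) and 4 of 7 in membrane RNA (the same 3 and *Il6st*). The background was 2.32% of genes in whole cells, 2.18% in nuclear RNA, 1.89% in cytosolic RNA and 12.7% in membrane RNA. With replicate number as a block, the member counts were 4 in whole cells, 0 in nucleus, 2 in cytosol and 3 in membrane. *Pim1* was lost in cytosolic RNA and *Il6st* in membrane RNA, and *Lifr* was added in whole cells. Over all genes 343 of 12762, 11 of 13343, 106 of 11979 and 609 of 12408 then fell, in that order. Without any 1 replicate, 0 of all genes tested passed in whole cells or cytosol, so the loss of the member calls there says nothing about the members, and the *Socs3* difference then ran from -2.27 to -2.19 in whole cells. In the nucleus 0 of 13343 genes passed without replicate 2 or replicate 3, and in the membrane fraction at most 2 of 12408 fell, of which 0 or 1 were members.

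From 60 to 120 min, *Socs3*, *Pim1* and *Pim3* passed in whole cells, cytosol and membrane fraction, and *Pim1* and *Pim3* in the nucleus. *Pim3* fell by 2.16 in whole cells and *Socs3* by 1.57. The nuclear difference of *Socs3* was -0.79 ± 0.25 (SE, adjusted p = 0.059, limma). *Il6st* passed in whole cells and membrane fraction and *Socs2* in whole cells. Falls over this step were called for 26.5% of genes in whole cells, 12.1% in nuclear RNA, 34.5% in cytosolic RNA and 25.6% in membrane RNA. Leaving out 1 replicate ended the whole-cell calls of *Socs3* and *Pim1* once in 3 each (adjusted p up to 0.086 and 0.054) and it left 1 membrane call of *Socs3* of 3. In nuclear RNA 0 of 13343 genes passed this step without replicate 2 or replicate 3, *Pim1* and *Pim3* among those lost.

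Half-lives from a single exponential, fitted with a free starting level, were shortest for these 3 genes in whole-cell RNA. The half-life was 13.9 ± 0.34 min for *Socs3* (SD over fits to the 3 replicate series), 17.1 ± 4.3 min for *Pim3* and 40.2 ± 1.7 min for *Pim1*. With only the times to 120 min, *Socs3* gave 13.8 ± 0.34 min in whole cells, 17.9 ± 4.9 in nuclear RNA, 12.5 ± 0.29 in cytosolic RNA and 12.4 ± 2.5 in membrane RNA. With all times the nuclear fit of *Socs3* gave 397 min, a value that 1 replicate decided. The series of replicates 2 and 3 gave 14.9 and 18.3 min on their own, that of replicate 1 gave no decay, and the fit without replicate 1 gave 16.4 min. A straight line on the log2 scale gave 460 min for *Socs3*, 71.4 min for *Pim3* and 80.9 min for *Pim1* in whole cells. Centring on the median gene gave 70.8 min for *Pim1* and no decay for *Socs3*, and a starting level fixed at 1 gave 27.3 min for *Pim3*.

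The receptor genes kept more of their RNA. *Lifr*, for the LIF-binding subunit, stood at 0.649, 0.865 and 0.837 in whole cells at 30 min, at 0.346, 0.401 and 0.505 at 60 min, at 0.277, 0.403 and 0.407 at 120 min, and at 0.318, 0.412 and 0.368 at 240 min. The last 3 groups overlap. Membrane-bound *Lifr* RNA went from 0.814, 0.953 and 1.09 at 30 min to 0.562, 0.565 and 0.568 at 120 min and 0.559, 0.587 and 0.528 at 240 min. The difference between 240 and 120 min was 0.03 in whole cells, with a 95% interval of -0.44 to 0.49, and -0.02 in the membrane fraction, with an interval of -0.30 to 0.26. The *Lifr* half-life depended on the window, at 165 ± 14 min over all times and 68.1 ± 8.5 min to 120 min, and on the scaling, at 3446 min after centring on the median gene.

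*Il6st*, the gp130 gene, fell further. Its whole-cell ratios were 0.682, 0.779 and 0.838 at 30 min, 0.331, 0.416 and 0.476 at 60 min, 0.165, 0.265 and 0.286 at 120 min, and 0.241, 0.200 and 0.200 at 240 min. Only the groups at 120 and 240 min overlap. Among membrane libraries the fall continued to 240 min, from 0.378, 0.415 and 0.384 to 0.233, 0.237 and 0.281, by 0.65 on the log2 scale (adjusted p = 0.0015, limma). In the cytosol the 120 min ratios of 0.589, 0.611 and 0.476 lay above those of every other fraction at that time. The whole-cell half-life was 64.7 ± 6.8 min, and it was 130 min from a straight line on the log2 scale and 176 min after centring on the median gene.

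*Jak1*, the kinase gene, had the highest mean ratio of the members at 240 min in whole cells, nucleus and cytosol, while in the membrane fraction *Lifr* was higher, at 0.558 beside 0.516. Its whole-cell ratios lay between 0.691 and 0.962 in all 12 libraries, and at 240 min were 0.805, 0.813 and 0.811. The nuclear ratios at 240 min were 0.996, 0.989 and 0.908 and the cytosolic ones 0.870, 0.853 and 0.836. From 120 to 240 min the cytosolic difference was -0.37 ± 0.09 (SE, adjusted p = 0.0077, limma), a step at which 47.9% of all genes fell. Membrane-associated *Jak1* RNA stood at 0.898, 0.889 and 0.877 at 30 min, 0.641, 0.587 and 0.663 at 60 min, 0.625, 0.434 and 0.592 at 120 min, and 0.367, 0.517 and 0.664 at 240 min. From 60 min on, every membrane library was below every library of the other fractions at the same time, a difference in level that was not tested. The fitted half-life of 1118 ± 421 min in whole cells is longer than the period observed and is not resolved by it.

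*Socs2* varied widely between replicates, and most of its differences between neighbouring times did not pass. Its cytosolic ratios were 3.15, 1.82 and 1.58 at 30 min and 1.99, 0.337 and 0.174 at 60 min, so the groups overlap and the second is widely spread. In whole cells the ratios were 0.968, 0.337 and 0.845 at 30 min, 0.179, 0.109 and 0.0541 at 120 min and 0.359, 0.251 and 0.217 at 240 min. The late difference of 1.40 ± 0.59 (SE) in whole cells did not pass (adjusted p = 0.094, limma). In the membrane fraction *Socs2* fell by 2.09 on the log2 scale over the last step (adjusted p = 0.019, limma), from 0.969, 0.458 and 0.708 to 0.243, 0.123 and 0.138. The *Socs2* slope over all times passed in nuclear RNA, at -0.78 ± 0.19 per hour (SE, adjusted p = 0.0026, limma). That was the steepest nuclear slope of the members. In membrane RNA it passed at -0.79 ± 0.16 (SE, adjusted p = 0.00058, limma). Both calls held without any 1 replicate, but centring on mitochondrially encoded RNAs ended the nuclear one.

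*Stat3* itself was listed in 3 of 48 libraries, with ratios of 0.584 in 1 nuclear library at 30 min and of 0.489 and 0.494 in 2 nuclear libraries at 60 min. It was not fitted, and its missing entries cannot be read as missing RNA, since *Grb2* was listed in 0 libraries and *Ptpn11* in 1.

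Over all 4 times, a straight line gave the slope of each member in log2 units per hour. Falling slopes passed for 4 of 7 members in whole cells, 5 in nuclear RNA, 5 in cytosolic RNA and 6 in membrane RNA, and 0 rose, also at an unadjusted p under 0.05 (limma). Most genes showed the same direction, with falling slopes called for 56.9% in whole cells, 61.9% in nuclear RNA, 67.1% in cytosolic RNA and 62.2% in membrane RNA. The median slope of the 7 members was -0.39, -0.45, -0.29 and -0.50, beside -0.22, -0.30, -0.28 and -0.26 for all genes. *Pim3* and *Pim1* were the steepest in whole cells, at -0.84 ± 0.23 and -0.74 ± 0.10 (SE, n = 12), and *Il6st* at -0.46 ± 0.10 and *Lifr* at -0.23 ± 0.09 passed as well. *Socs2* lay between *Il6st* and *Lifr* at -0.39 ± 0.24 and did not pass (adjusted p = 0.19, limma). *Jak1* had -0.05 ± 0.03 in whole cells and did not pass (adjusted p = 0.17, limma), nor did it in nuclear RNA. Its slope passed in cytosolic RNA at -0.12 ± 0.03 and in membrane RNA at -0.20 ± 0.06 (SE, adjusted p = 0.0020 and 0.015, limma). *Socs3*, whose course turns, had a slope of -0.13 ± 0.31 and did not pass (adjusted p = 0.74, limma), although its whole-cell mean at 120 min, 0.0225 ± 0.0089 (SD, n = 3), was the lowest of the members.

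**Figure D3:**
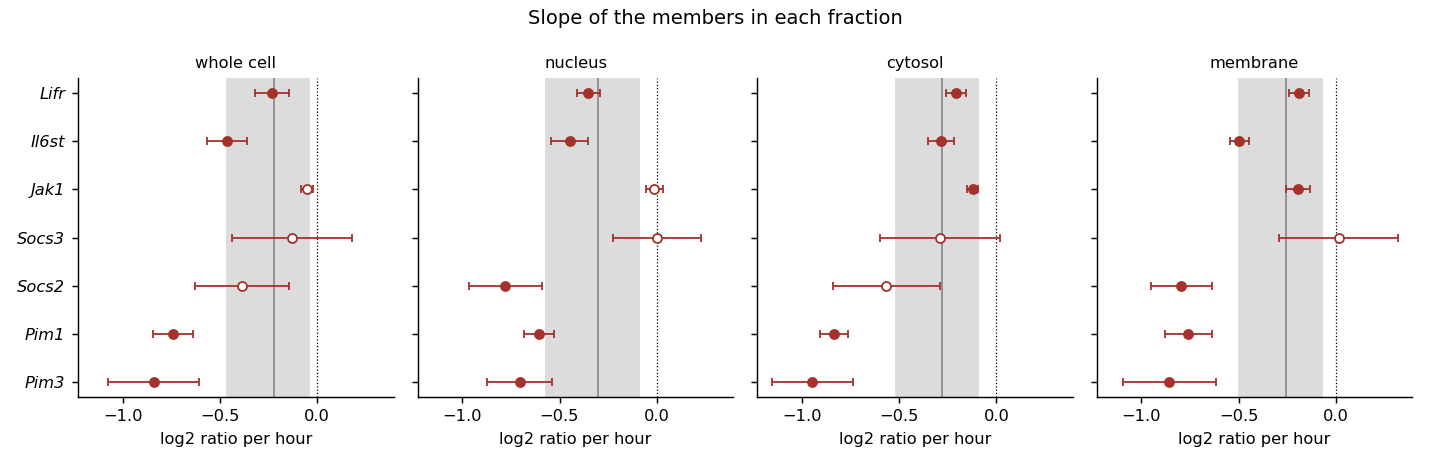
Slope of each member in log2 ratio per hour, with SE (n = 12 libraries per fraction); filled points passed an adjusted p of 0.05, grey bands hold the middle 50% of all genes and the grey line is their median. *Pim1* and *Pim3* lie to the left of the band in every panel, and *Jak1* and *Socs3* reach closest to 0 in whole cells.

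These slopes rest on the authors' scaling of the libraries. Centring each library on its median gene moved the median slope in whole cells from -0.22 to 0.01 and the calls from 7262 falling and 432 rising genes to 3961 and 3672. After it *Pim1* and *Pim3* still fell in all 4 fractions, at -0.51 and -0.61 in whole cells. The *Jak1* slope turned to 0.18 in whole cells, 0.30 in nuclear RNA and 0.16 in cytosolic RNA, each with an adjusted p under 0.05 in limma, and *Lifr* was at -0.0034 in whole cells. Centred instead on mitochondrially encoded RNAs, no member passed in nuclear RNA by limma, where falling calls over all genes went from 8256 to 2926 of 13343. This reference held 22 genes in whole cells, 16 in nuclear RNA, 10 in cytosolic RNA and 24 in membrane RNA. With this centring *Jak1* fell by 0.16 per hour in whole cells (adjusted p = 0.0023, limma), where 8935 of 12762 genes fell. Leaving out any 1 replicate left 3 falling members in whole cells, where 6002 to 6903 of 12762 genes fell. Without 1 of the replicates 4 rather than 6 passed in the membrane fraction, where 6345 of 12408 genes fell.

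No member passed the test of a different slope between 2 fractions when the shared harvest was left out of the fit. At an unadjusted p under 0.05, 2 members differed between nucleus and cytosol (*Jak1* and *Pim1*), 1 between membrane and cytosol (*Il6st*) and 2 between nucleus and membrane (*Lifr* and *Jak1*), by limma. Among all genes 20.6% differed between nucleus and cytosol, 6.70% between membrane and cytosol and 8.35% between nucleus and membrane. *Pim1* fell more slowly in nuclear RNA than in cytosolic RNA by 0.23 per hour, with a 95% interval of 0.01 to 0.45 (adjusted p = 0.13, limma). The *Il6st* difference of membrane minus cytosol was -0.21, with an interval of -0.38 to -0.04. The *Jak1* difference of nucleus minus membrane was 0.18, with an interval of 0.03 to 0.34. For *Socs3* the intervals were wide, from -0.53 to 1.10 for nucleus minus cytosol, in a fit of a straight line to a course that turns. The SE of that difference was 0.39 in this fit and 0.10 with the shared harvest as a block. That block has a level for each time and replicate number, so it also takes up any time course that the 2 fractions share. How much of the smaller SE came from either was not tested. With the shared harvest as a block, *Pim1* passed between nucleus and cytosol at the same 0.23 (adjusted p = 0.0064, limma), and *Socs3* between membrane and cytosol at 0.30 (adjusted p = 0.0050, limma), while none passed between nucleus and membrane.

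**Figure D4:**
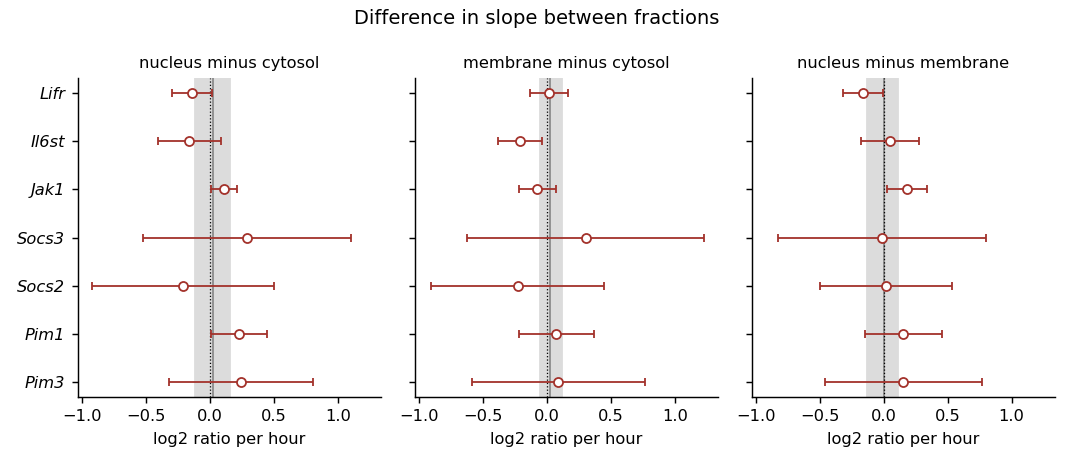
Difference in slope between 2 fractions (log2 ratio per hour) for each member, with 95% intervals (n = 12 libraries per fraction) and no harvest block; open points did not pass an adjusted p of 0.05, and grey bands hold the middle 50% of all genes. No point is filled, and *Socs3* and *Socs2* have the widest intervals in the first 2 panels.

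Other genes of the pathway fell in whole-cell RNA as well. Of 13 inhibitor genes (SOCS, PIAS and phosphatases), 10 were tested and 9 fell, beside 56.9% of all genes, with *Socs6*, *Socs5* and *Socs4* the steepest at -0.82, -0.80 and -0.70 per hour. The median slope of the inhibitors was -0.47, beside -0.22 for all genes. In nuclear and cytosolic RNA 9 of 10 tested inhibitors fell, and in membrane RNA 9 of 9, beside 61.9%, 67.1% and 62.2% of all genes in the 3 fractions. Between 120 and 240 min 0 inhibitors rose in any fraction by limma, and 0 at an unadjusted p under 0.05.

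Of 12 genes known as STAT3 targets, all were tested in whole cells and 11 fell, with a median of -0.78. Over all genes 56.9% fell in whole cells and the median slope was -0.22. The steepest were *Gbx2*, *Klf4* and *Sall4*, transcription factors of the pluripotency network, at -1.30, -1.19 and -1.04 per hour. *Cebpb* was at 0.03 ± 0.15 (SE) and did not pass. In the nucleus 9 of 11 tested targets fell, in cytosolic RNA 10 of 11 and in membrane RNA 10 of 11, beside 61.9%, 67.1% and 62.2% of all genes. Between 120 and 240 min, 2 targets rose in whole cells, *Junb* by 1.50 and *Cebpb* by 1.34, and 1 in cytosolic RNA, *Fos*, while 0 rose in nuclear or membrane RNA (limma, and 0 at an unadjusted p under 0.05). These 3 are named because of their values. *Fos* did not pass in whole cells, at -0.43 ± 0.67 (SE). Over the same step 6 of 12 tested targets fell in whole cells and 5 of 11 in nuclear RNA. In cytosolic RNA 8 of 11 fell and in membrane RNA 9 of 11. Over all genes 5.92% rose and 29.2% fell in whole cells, and 1.97% and 34.3% in nuclear RNA. In cytosolic RNA 2.78% rose and 47.9% fell, and in membrane RNA 3.72% and 37.6%.

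Few other genes of the upper pathway were measured. Of 10 cytokine and receptor genes, 3 were tested in whole cells and 2 fell, *Ctf1* at -0.53 and *Clcf1* at -0.49 per hour. Of 14 kinase, STAT and adaptor genes, 4 were tested and 3 fell, *Sos1*, an exchange factor for RAS, at -0.45, *Tyk2*, a JAK family kinase, at -0.36 and *Stat6* at -0.18. The median slopes of these lists were -0.49 and -0.27. Falls of cytokine and receptor genes numbered 1 of 3 tested in nuclear RNA, 1 of 3 in cytosolic RNA and 0 of 2 in membrane RNA, and those of kinase, STAT and adaptor genes 4 of 4, 3 of 4 and 2 of 5. The background was 56.9% of all genes in whole cells and 61.9%, 67.1% and 62.2% in nuclear, cytosolic and membrane RNA, and with so few genes tested these counts cannot be told from it.

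The courses most like those of *Socs3*, *Pim1* and *Lifr* were found by the root mean square difference over the 16 mean log2 ratios, among 8602 named genes listed in all libraries. Nearest to *Socs3* was *Trib1*, a pseudokinase gene, at 0.74, beside a median of 3.14 for all these genes. The whole-cell mean of *Trib1* went from -1.04 at 30 min to -5.66 at 120 min and back to -3.15 at 240 min, and it was the gene ahead of *Socs3* by the smallest of 4 late rises. Next came *Zfp941* at 1.04 and *Pim3*, itself a member, at 1.12. The genes nearest to *Pim1* were *Ticrr* at 0.21, *Zfp597* at 0.23 and *Zfp867* at 0.26, beside a median of 1.61. Those nearest to *Lifr* were *Igsf3* at 0.22, *Ehbp1l1* at 0.25 and *Faf2* at 0.27, beside a median of 0.77. Because these medians differ, the distances cannot be compared directly between *Socs3*, *Pim1* and *Lifr*.

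The libraries listed 15067 to 19501 genes each. Of 9 stem cell markers, 7 were listed in all 48 libraries, *Zfp42* in 47 and *Esrrb* in 37. None of 6 fibroblast and none of 5 endoderm markers were listed in all, but *Col1a1* was in 44, *Thy1* in 43, *Gata6* in 42 and *Sox7* in 38, while *Postn*, *Gata4* and *Afp* were in 0. Ratios carry no level, so these lists show only how often a marker was listed. The nuclear library of replicate 1 at 30 min stood apart, with a median log2 ratio of -0.85 beside -0.10 and -0.31 in the other two. Without it, 5 members rather than 2 passed the first nuclear step, while falling genes went from 291 to 3446 of 13343, and the late nuclear rise of *Socs3* still passed.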

How the data were processed

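The deposited values are ratios to 0 min, 1 per gene and library, for polyadenylated RNA of 48 libraries. The authors mapped reads with STAR 2.7.6 and quantified genes with RSEM 1.3.3 (per the labels), then scaled libraries on long-lived genes and divided by the 0 min level. All listed values are above 0. Why other genes are not listed is not known, and depth is unknown. The direction of slow changes follows from that scaling. Log2 ratios, with no pseudocount, were fitted in limma 3.58.1 (R 4.3.3, trended empirical Bayes, two-sided, Benjamini-Hochberg over all genes of a fit, threshold 0.05), for genes listed in all libraries of the fit. Slopes used time in hours, steps used time as a factor, and slope differences used a fraction by time interaction. Half-lives were least-squares fits (scipy 1.17.1). A test of 30 against 0 min was planned and not run, since the error of the 0 min level is not in the values.

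Members and lists were chosen with earlier results of these data known. Named genes were the members, the 3 steepest called genes of each list each way, and the 3 genes nearest to *Socs3*, *Lifr* and *Pim1* (in place of *Stat3*, which was not listed in every library). The last time is 240 min in the titles and 180 min in the protocol text, and 240 was used. Fractions of 1 number and time share a harvest per the protocol, although same-numbered deviations correlated only from -0.09 to 0.15 between fractions. Scripts were tested on simulated data.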

Additional observations from a re-analysis of the deposited data

How the results depend on the processing

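The count of members with a falling slope changed with the scaling and the times used. Centred on the median gene it was 3 in nuclear RNA and 2 in cytosolic RNA, where 3897 of 13343 and 3887 of 11979 genes fell. Centred on mitochondrially encoded RNAs it was 0 in nuclear RNA and 2 in cytosolic RNA, where 2926 and 3539 genes fell. With 30, 60 and 120 min only, it was 3 in the cytosol, where 6026 genes fell. It was then 6 in whole cells, nucleus and membrane fraction, where 6480 of 12762, 5273 of 13343 and 6665 of 12408 genes fell. Without 1 replicate it was 3 in whole cells, 5 in nuclear RNA, 4 to 5 in cytosolic RNA and 4 to 6 in membrane RNA. Over all genes 6002 to 6903, 6400 to 8421, 7262 to 7573 and 6345 to 7214 then fell, in that order. Centred on the median gene, the count with a different slope was 1 for nucleus minus cytosol and 1 for nucleus minus membrane. Centred on mitochondrial RNAs it was 2 for membrane minus cytosol and 1 for nucleus minus membrane. With a last time of 180 min it was 1 for nucleus minus cytosol. Over all genes, median centring gave 1132 negative and 1919 positive calls of 11232, and 864 and 1142 of 11643. Mitochondrial centring gave 2269 and 7 of 11086, and 39 and 3859 of 11643. A last time of 180 min gave 1039 and 1248 of 11232. With the harvest as a replicate block the member count was 1 for nucleus minus cytosol and 1 for membrane minus cytosol, and without 1 replicate it was 0 in every pair. The harvest block gave 1063 and 1603 calls of 11232 genes, and 253 and 706 of 11086. Same-numbered libraries across times deviated together weakly (-0.06 to 0.19), as did fractions of 1 harvest, so pairing of times is undecided. The replicate block left 4, 5, 6 and 6 falling members in whole cells, nucleus, cytosol and membrane. It left 0 members lower at 60 than at 30 min in nuclear RNA (11 of 13343 genes) and moved the late rises to 2 in whole cells and 1 in membrane RNA. The alternatives for the steps were chosen after seeing the data. The whole-cell count lower at 60 min was 5 with mitochondrial centring, with a pseudocount of 0.1, with genes listed in all 48 libraries and without the limma trend. Over all genes 373 of 12762, 1272 of 12762, 547 of 10694 and 602 of 12762 fell there, in that order. Mitochondrial centring gave 0 in nuclear RNA and 6 in cytosolic RNA, and leaving out the low nuclear library at 30 min gave 5. These settings moved all genes too, to 16 of 13343, 8089 of 11979 and 3446 of 13343 falling. Without 1 replicate these counts were 0 in whole cells, 0 to 3 in nuclear RNA, 0 in cytosolic RNA and 0 to 1 in membrane RNA, where over all genes 0, 0 to 987, 0 and 0 to 2 fell. Centred on the median gene, the count higher at 240 than at 120 min was 2 in whole cells, nucleus and cytosol. There 2071 of 12762, 1997 of 13343 and 2413 of 11979 genes rose. The count was also 2 in whole cells without the trend, where 713 of 12762 genes rose. It was 1 in the membrane fraction with a pseudocount of 0.1 and with no filter on listing. Without 1 replicate it was 1 in whole cells, nucleus and cytosol and 1 to 2 in the membrane fraction.

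Directions reversed for few values. Centred on the median gene, the slope of *Jak1* was 0.18 in whole cells, 0.30 in nuclear RNA, 0.16 in cytosolic RNA and 0.065 in membrane RNA, and that of *Lifr* 0.074 in cytosolic RNA and 0.071 in membrane RNA. The *Jak1* steps then were 0.31 in whole cells and 0.26 in cytosolic RNA from 60 to 120 min, and 0.50 in nuclear RNA and 0.13 in cytosolic RNA from 120 to 240 min. Centred on mitochondrial RNAs, the cytosolic *Jak1* slope was 0.039 and the last nuclear *Pim1* step 0.53. With 30, 60 and 120 min only, the *Socs3* slope was -1.63 in nuclear RNA and -2.20 in membrane RNA, since the rise lies after 120 min. The causes of the other changes were not tested. Of 231 alternative half-lives 147 moved by less than 1 SD between replicates, and depth limits could not be given because the ratios carry none.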
